A study of Mus musculus with 32 samples.

Results

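Foxp3 and 6 other genes by which regulatory T cells (Treg) are known, Ikzf2, Ikzf4, Nrp1, Lrrc32, Izumo1r and Gpr83, were followed in mice through graft-versus-host disease (GVHD), the attack of donor T cells on the recipient. They were found in the expression table by exact gene symbol, and all 7 were present among its 16741 genes. Donor T cells came from C57Bl6 mice, and Balb/c mice were the recipients of the mismatched graft. The libraries were bulk RNA-seq of T cells from spleen and lymph nodes. Before transplantation, at day 0, there were 2 libraries each of Treg, CD4+ and CD8+ cells. After transplantation, each of these conventional cell types had 3 libraries from untreated syngeneic controls, 4 from untreated hosts with GVHD (called allogeneic here) and 4 from hosts with GVHD that received Treg at the time of transplantation. Treg were also recovered from Treg-treated hosts, in 3 libraries. The sample titles place the second time point at day 6 and the description of the series at day 8. The sort gates, the host conditioning, and the age and sex of the mice are not given in the sources used here. Nor do they say whether a reporter allele marked the Treg, or whether recovered Treg were told from host cells.

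Treg are CD4+ T cells that restrain other T cells, and Foxp3 is the forkhead transcription factor that defines them. Ikzf2 (Helios) and Ikzf4 (Eos) are Ikaros family transcription factors, and Eos acts with Foxp3 in gene silencing. Nrp1 (neuropilin-1) is a receptor for semaphorins and VEGF, Lrrc32 (GARP) is the surface anchor of latent TGF-beta, Izumo1r is folate receptor 4, and Gpr83 is a G protein-coupled receptor; all 4 are surface proteins used to tell Treg from conventional cells. Some of these genes are not restricted to Treg: activated conventional T cells can express Foxp3, Helios and neuropilin-1.

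All values below are normalised counts per library as deposited, which are not divided by gene length, so levels are compared between groups for 1 gene and never between genes. Cd4 ranged from 7239 to 9029 in Treg at day 0 and Cd8a from 28.5 to 59.5. In the 12 conventional CD4+ libraries other than 1 syngeneic library, Cd4 was 8722 or more. That library, the second syngeneic CD4+ library with the label prefix JL019, held 825480 normalised counts of Lyz2, a macrophage and granulocyte gene, and 1659 of Cd4. The main results against syngeneic CD4+ cells are also given without it. It also enters the spread that all groups share in the main fit. For comparisons without its group, only the fits on the compared groups alone or within the prefix JL027 leave it out. The mean over all genes ran from 1227 to 2385 normalised counts per library. In bulk RNA, fewer cells of a type and less RNA per cell cannot be told apart. The labels do not say whether replicates came from separate mice, so p-values measure the spread between these samples, which may be partly technical. Differences are log2 differences of (normalised count + 1), tested with limma across all genes, and a gene is said to rise or fall where the adjusted p was under 0.05. Statements that libraries do or do not overlap between groups are descriptive. With as few as 2 libraries a group, separation can arise by chance, and its share over all genes is not given here.

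In the RefSeq annotation of GRCm38.p6, Foxp3 lies on chromosome X, chrX:7579676-7595243. Gpr83 (chr9:14859880-14870789) and Izumo1r (chr9:14885814-14903951) are neighbours, 15024 bases apart, with no annotated gene wholly between them. Ikzf2 lies at chr1:69531207-69687351, Lrrc32 at chr7:98489305-98501831, Nrp1 at chr8:128358591-128505476 and Ikzf4 at chr10:128630839-128669671. The 250 bases before the first annotated Foxp3 start, chrX:7579426-7579675 on the + strand, are shown because Foxp3 went from near 0 to a level overlapping that of Treg in CD8+ cells. The capitals mark a match to TATAAA, 32 to 27 bases before the start, searched on both strands. These letters occur in 12.4% of 32851 RefSeq promoter windows of the same length. The other motifs searched, on both strands, have no match in this window. They were the NFAT core GGAAAA, which 20.4% of those windows hold, the RUNX core TGTGGT (14% of windows) and the forkhead motif TGTTTAC (3.17% of windows). The others were the CRE motif TGACGTCA (1.55% of windows), the AP-1 motif TGAGTCA (4.46% of windows), the STAT motif TTCNNNGAA (7.02% of windows) and the GATA motif AGATAA (9.99% of windows). A second annotated Foxp3 start has its window inside the gene, chrX:7580233-7580482, and is not printed. That window holds the NFAT core on the reverse strand, 141 to 136 bases before its start, the STAT motif overlapping it at 139 to 131 bases, and the GATA motif at 47 to 42 bases.
Foxp3 promoter: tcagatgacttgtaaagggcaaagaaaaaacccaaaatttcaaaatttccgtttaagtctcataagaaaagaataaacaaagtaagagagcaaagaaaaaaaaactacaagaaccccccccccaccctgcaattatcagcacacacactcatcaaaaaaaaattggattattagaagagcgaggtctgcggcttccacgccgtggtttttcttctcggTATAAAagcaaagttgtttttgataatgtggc

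**Figure D1:**
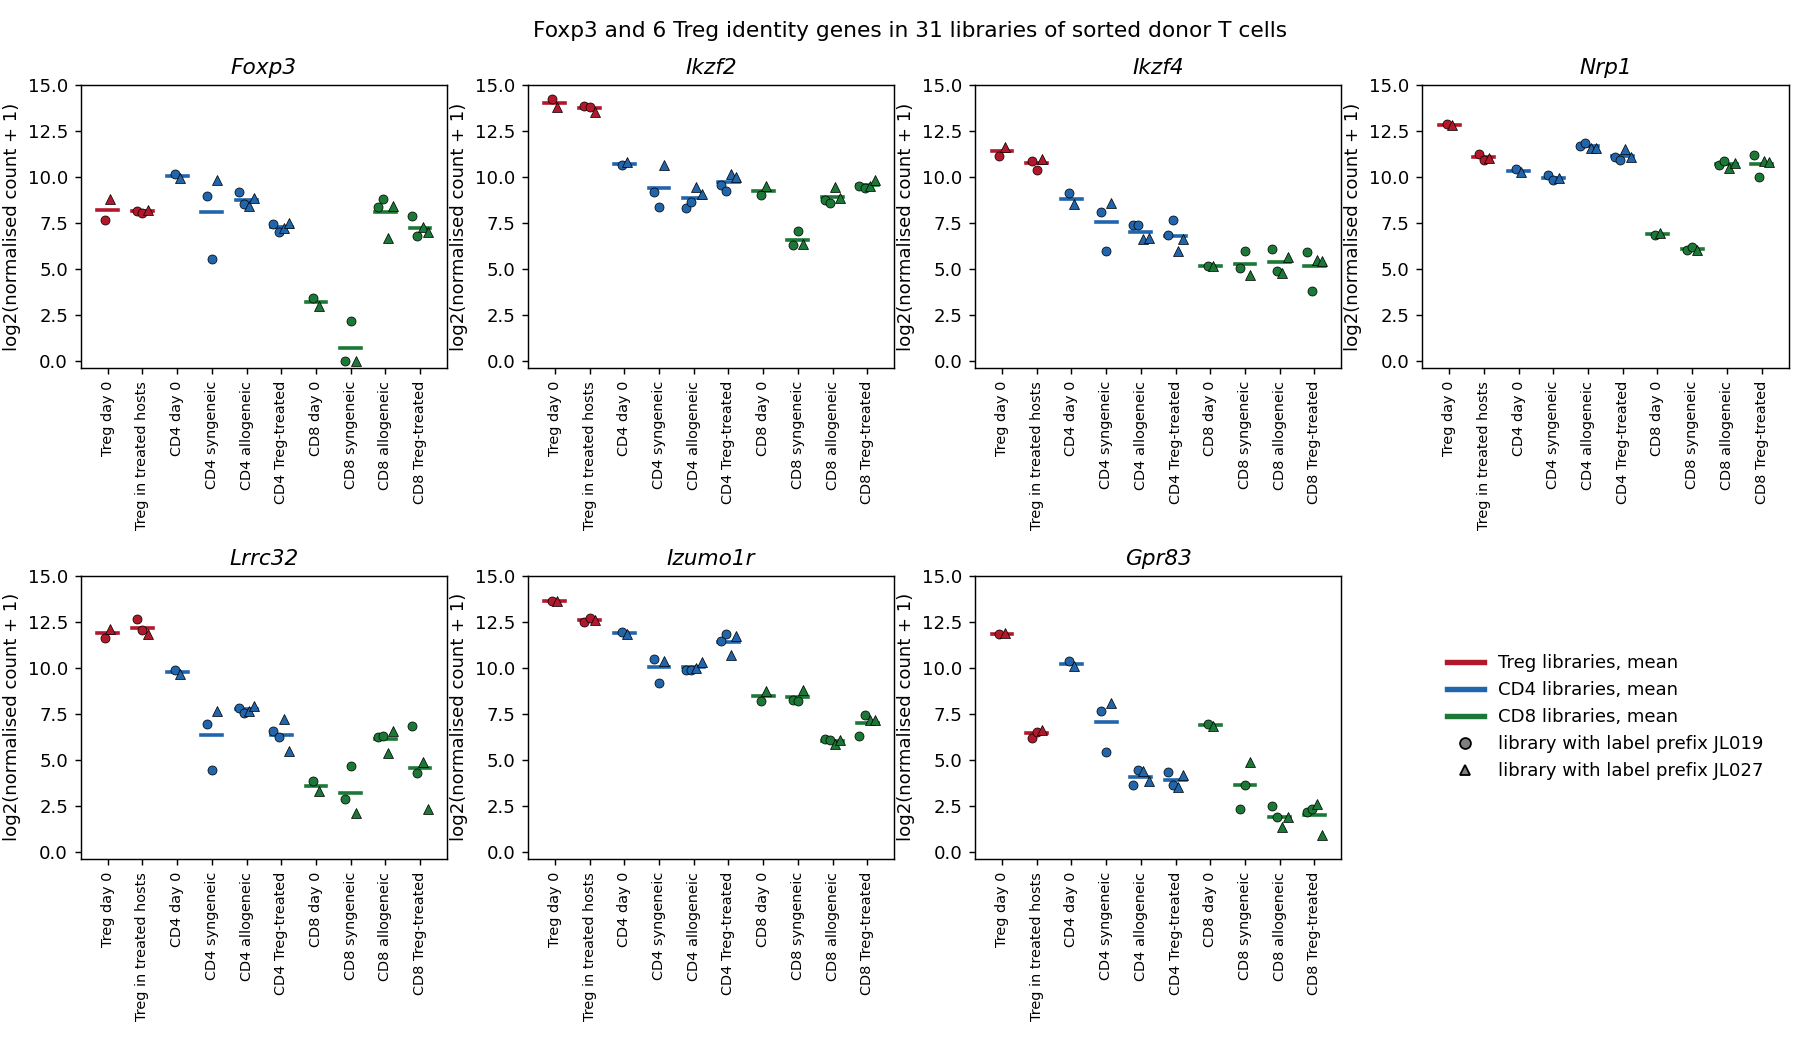
Normalised counts of the 7 genes in 31 libraries, as log2(normalised count + 1) on the vertical axis, by group on the horizontal axis; each point is 1 library, its shape gives the label prefix, and the bar is the mean of the log2 values. The other 6 genes have their highest mean in Treg, whereas Foxp3 is highest in CD4+ cells at day 0 and at 0 in 2 of 3 syngeneic CD8+ libraries.

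Foxp3 was not higher in Treg than in conventional CD4+ cells at day 0. In Treg at day 0 it measured 198 and 442 normalised counts in the libraries JL019 and JL027, and in CD4+ cells at day 0 it measured 1145 and 978. Both Treg libraries were below both CD4+ libraries. The Treg mean was 3.32-fold lower, but the difference of -1.84 (SE 0.856, adjusted p = 0.309) did not pass the test across all genes. Fitted on these 2 groups alone it passed (adjusted p = 0.0262; range over all alternatives 0.0262 to 0.986). Recovered Treg held 285, 265 and 293 normalised counts of Foxp3, between the values of the day 0 libraries.

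Ordered by mean, Foxp3 stood at 1061 ± 118 (SD, n = 2) in CD4+ cells at day 0, 480.0 ± 430.1 (SD, n = 3) in syngeneic and 438 ± 109 (SD, n = 4) in allogeneic CD4+ cells. Treg at day 0 followed with 320.1 ± 173 (SD, n = 2), then allogeneic CD8+ cells with 306 ± 147 (SD, n = 4) and recovered Treg with 281 ± 14.7 (SD, n = 3). CD8+ and CD4+ cells of Treg-treated hosts came next, with 156 ± 56.2 (SD, n = 4) and 156 ± 23.5 (SD, n = 4). The lowest levels were 8.25 ± 2.02 (SD, n = 2) in CD8+ cells at day 0 and 1.17 ± 2.03 (SD, n = 3) in syngeneic CD8+ cells. Neighbours in this order overlapped from syngeneic CD4+ cells down to recovered Treg, and again between the CD8+ and CD4+ cells of Treg-treated hosts.

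**Figure D2:**
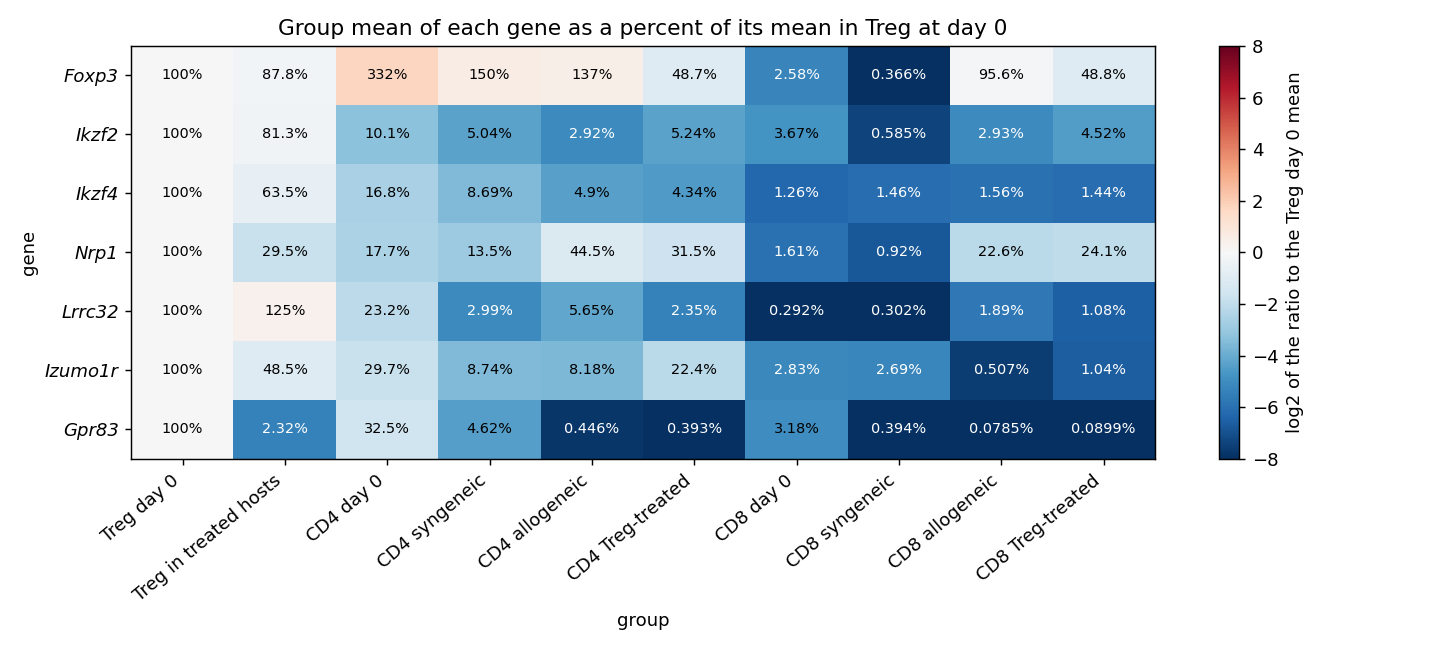
Mean of each gene (rows) in each of the 10 groups (columns) as a percent of its mean in Treg at day 0; the colour is the log2 of that ratio. Foxp3 reaches 332% of the Treg level in CD4+ cells at day 0, where the other 6 genes are at 10.1% to 32.5%.

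The other 6 genes followed the Treg label at day 0. The CD4+ mean was 10.1% of the Treg mean for Ikzf2, 16.8% for Ikzf4, 17.7% for Nrp1, 23.2% for Lrrc32, 29.7% for Izumo1r and 32.5% for Gpr83. Of the 7 genes, 4 were higher in Treg by the test and 3 did not pass it, against a background of 2.54% of all genes higher and 1.34% lower. Marker sums in Treg and CD4+ libraries were 1056 to 1198 and 492 to 641 for B cells. Plasmacytoid sums, which include Ccr9, were 2456 to 2695 and 2194 to 2398. Lower in Treg were endothelial and stromal (2878 to 3628, 4684 to 5209), NK (251 to 390, 511 to 566) and erythroid sums (117 to 451, 490 to 1161). The part of these markers in the day 0 results was not tested.

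Among the transcription factors, Ikzf2 measured 19287 and 14182 in Treg and 1619 and 1769.9 in CD4+ cells at day 0, a difference of 3.29 (SE 0.47, adjusted p = 4.96e-05). Ikzf4 measured 2250.4 and 3204 in Treg against 548 and 368, a difference of 2.58 (SE 0.673, adjusted p = 0.0251). Neither gene overlapped between the groups. Among the surface proteins, Nrp1 measured 7417 and 7167 against 1354 and 1221, a difference of 2.50 (SE 0.264, adjusted p = 5.35e-07). Izumo1r measured 12836 and 12720.5 against 3936 and 3659, a difference of 1.75 (SE 0.383, adjusted p = 0.00618). These groups did not overlap either.

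Lrrc32 at day 0 measured 3171 and 4363 in Treg and 946 and 802 in CD4+ cells, with a difference of 2.09 (SE 0.946, adjusted p = 0.288). Gpr83 measured 3632 and 3742 in Treg and 1299 and 1101 in CD4+ cells, with a difference of 1.62 (SE 0.703, adjusted p = 0.255). Both genes were higher in each Treg library than in either CD4+ library, without passing the test. When only these 2 groups entered the fit, all 7 genes passed, Foxp3 as the only one lower in Treg. When any 1 of the 4 libraries was left out, Ikzf4 and Izumo1r lost their call and 2 genes remained past the threshold.

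After transplantation, the surface protein genes Gpr83, Nrp1 and Izumo1r fell in Treg. The surface protein gene Lrrc32 and the transcription factors Foxp3, Ikzf2 and Ikzf4 did not pass the test. Of the 7 genes 3 fell between day 0 and recovery, none rose and 4 did not pass the test, while 4.89% of all genes fell and 8.43% rose. Gpr83 went from 3632 and 3742 to 71.1, 89.6 and 96 normalised counts, 43.1-fold lower, with a difference of -5.42 (SE 0.641, adjusted p = 6.70e-07). That places recovered Treg below CD4+ cells at day 0 for this receptor. Nrp1 went from 7417 and 7167 to 2409, 1973 and 2065, a difference of -1.77 (SE 0.241, adjusted p = 6.10e-06). Izumo1r went from 12836 and 12720.5 to 5669, 6719 and 6200.3, a difference of -1.05 (SE 0.35, adjusted p = 0.0459). For all 3 genes each recovered library was below each day 0 library. The Izumo1r call was lost when any 1 of the 5 libraries was left out (adjusted p 0.0744 to 0.217) and with libraries centred on their median (0.0785); over all alternatives its adjusted p ran from 0.000439 to 0.453. The summed level of 6 plasmacytoid dendritic cell markers was 2456 to 2695 in day 0 and 18851 to 23211 in recovered Treg, of which Ccr9, a gut-homing receptor that T cells also express, made up 14354 to 19234; their defining marker Siglech was 12.4 to 35.1 and 6.01 to 26.6. That of 6 erythroid markers was 117 to 451 in day 0 and 1644 to 50088 in recovered Treg. B cell marker sums were lower in recovered Treg, 1056 to 1198 and then 552 to 876. CD8 T cell marker sums were higher, 1113 to 1226 and then 2468 to 2730. Their part in these results was not tested.

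Ikzf2, Ikzf4 and Lrrc32 did not pass the test in recovered Treg. Ikzf2 measured 14862, 14335 and 11615, a difference of -0.29 (adjusted p = 0.738) with a 95% interval of -1.16 to 0.58. Ikzf4 measured 1842, 1319 and 2033, all below the day 0 libraries, with -0.66 (adjusted p = 0.564) and an interval of -1.92 to 0.61. Lrrc32, the GARP gene, measured 6326, 4213 and 3612, and 0.30 (adjusted p = 0.876) with an interval of -1.47 to 2.07. The intervals are wide enough to allow changes of over 1 on the log2 scale for all 3 genes. Foxp3 in recovered Treg differed by -0.08 (adjusted p = 0.969), with an interval of -1.68 to 1.53.

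In the Treg-treated hosts themselves, recovered Treg were compared with CD4+ cells. Of the 7 genes 5 were higher in Treg, none was lower and 2 did not pass the test, against 13.9% of all genes higher and 16.1% lower. With libraries centred on their median, the higher genes made up 32.7% of all genes called here and not 46.2%. Lrrc32 showed the widest gap of the 7: the CD4+ libraries held 91.5, 75.1, 145 and 42.8 against 3612 or more in Treg, 53.3-fold by means, a difference of 5.81 (SE 0.722, adjusted p = 1.97e-06). Ikzf4 measured 114, 198, 62.2 and 99.5 in these CD4+ cells, and Treg were higher by 3.96 (SE 0.514, adjusted p = 3.94e-06). Ikzf2 measured 760.3, 608, 1132 and 1009.7 there, and Treg were higher by 3.99 (SE 0.356, adjusted p = 7.37e-09). For these 3 genes the CD4+ and Treg libraries did not overlap.

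Gpr83, although low in recovered Treg, was lower still in the CD4+ cells beside them, with 18.7, 11.5, 10.6 and 17 normalised counts and a difference of 2.51 (adjusted p = 0.00123). Izumo1r measured 2833, 3599.5, 1622 and 3374 in CD4+ cells and differed by 1.18 (adjusted p = 0.00408). Nrp1 was at a like level in both: CD4+ cells held 2173, 1936, 2926 and 2165 and Treg 2409, 1973 and 2065. The Nrp1 ranges overlapped, and the difference was -0.09 (adjusted p = 0.771) with an interval of -0.50 to 0.33. The change of Nrp1 since day 0 differed between Treg and CD4+ cells by -2.59 (SE 0.333, adjusted p = 2.90e-05), and it was the only 1 of the 7 genes for which this difference passed in the main fit (background 1.44% higher, 3.27% lower). For Lrrc32 it was 3.71 (adjusted p = 0.0675) and for Foxp3 2.69 (adjusted p = 0.128). Outside the fits within 1 prefix, limma's adjusted p ran from 0.00346 to 0.248 for Lrrc32 and from 0.00424 to 0.402 for Foxp3. Foxp3 measured 285, 265 and 293 in Treg and 172, 127, 147 and 178 in CD4+ cells; each Treg library was above each CD4+ library, and the difference was 0.86 (adjusted p = 0.33; 0.0227 with only these 2 groups in the fit). Plasmacytoid dendritic cell marker sums were 18851 to 23211 in these Treg and 7755 to 10341 in CD4+ libraries, and myeloid ones 1245 to 2519 and 3549 to 15411. The plasmacytoid sum in these Treg was mostly Ccr9, as given above, and its make-up in the CD4+ libraries is not given here. The part of these markers in the results was not tested.

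**Figure D3:**
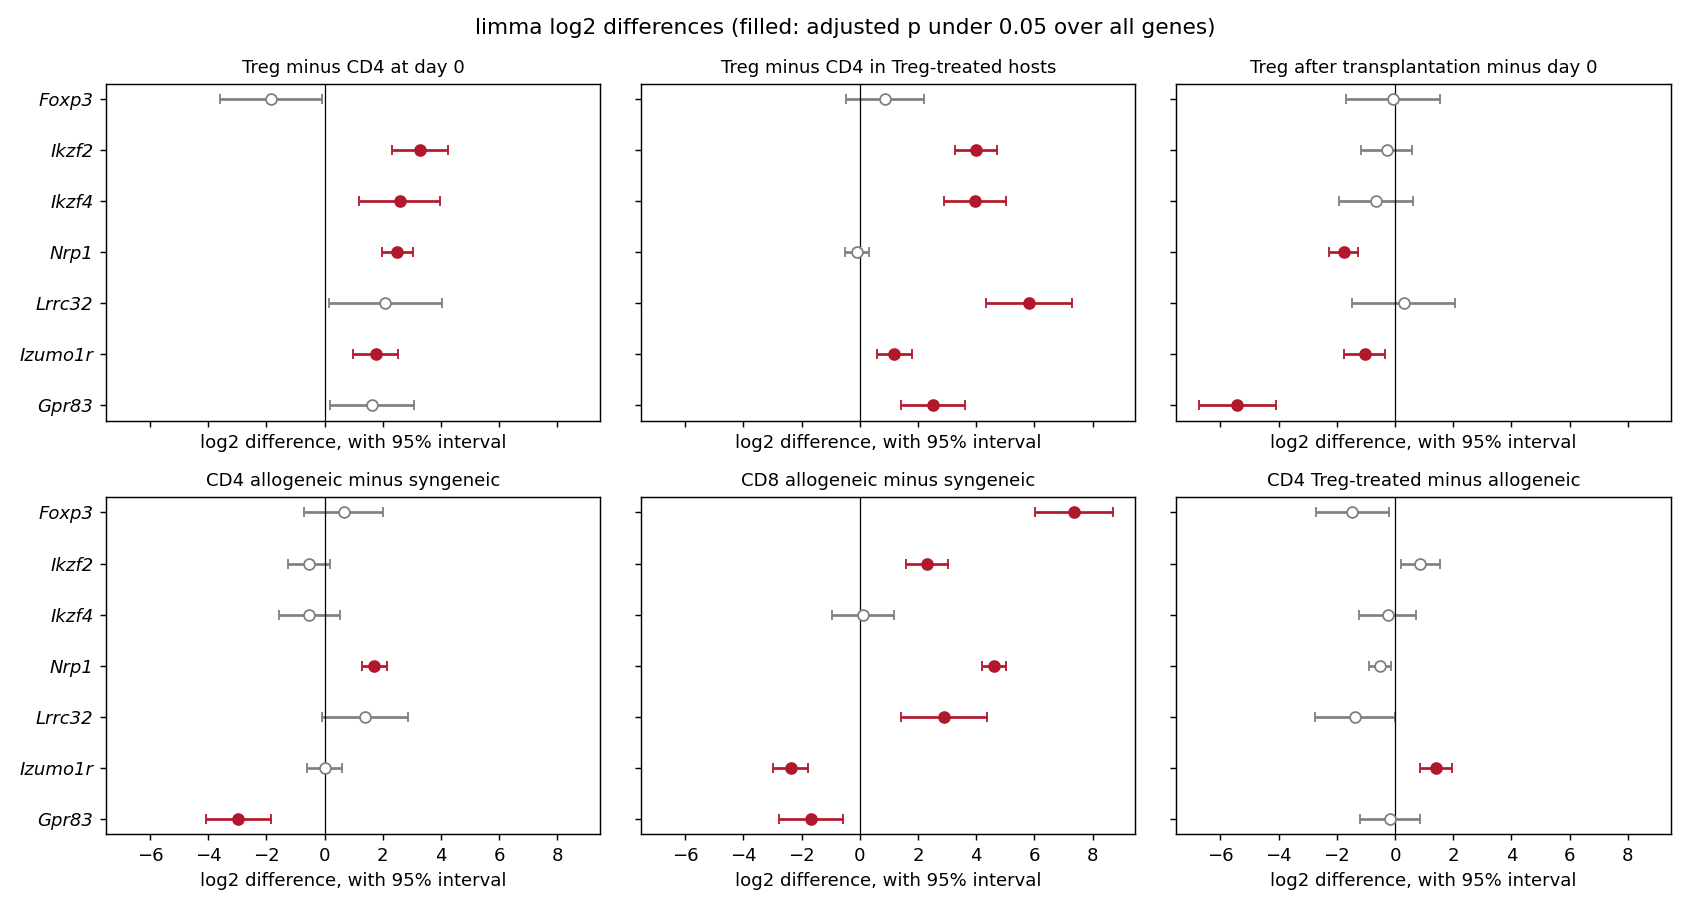
log2 differences of the 7 genes with 95% intervals (horizontal axis) in 6 comparisons; filled red points passed an adjusted p of 0.05 over all 16741 genes and open grey points did not. Foxp3 stands at 7.35 in CD8+ cells of allogeneic against syngeneic hosts and at -1.46, not past the threshold, in CD4+ cells of Treg-treated against allogeneic hosts.

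In allogeneic hosts part of the set was higher in CD8+ cells, Foxp3 and Nrp1 foremost. Of the 7 genes 4 rose and 2 fell against syngeneic CD8+ cells, beside 10.4% of all genes higher and 10.7% lower. Against CD8+ cells at day 0, 3 rose and 2 fell, beside 16.3% higher and 14.2% lower. The same 4 allogeneic libraries enter both comparisons.

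Foxp3 measured 9.68 and 6.82 in CD8+ cells at day 0, and was listed at 0 in 2 syngeneic CD8+ libraries and at 3.52 in the third. In allogeneic CD8+ cells it measured 334, 453, 103 and 335. The lowest of these, the library JL027-1, was above every day 0 and syngeneic CD8+ library. The rise was 37.1-fold by means since day 0, with a difference of 4.88 (SE 0.741, adjusted p = 1.07e-05). Against syngeneic cells the difference was 7.35 (SE 0.654, adjusted p = 2.05e-09); because of the zeros its size depends on the pseudocount and was 9.67 with a pseudocount of 0.1. It was 7.52 within the prefix JL019 (adjusted p = 0.000896) and 7.54 within JL027 (adjusted p = 9.72e-05).

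Allogeneic CD8+ cells held 69.8% of the Foxp3 level of allogeneic CD4+ cells, 579, 367, 337 and 469.9. The ranges overlapped, and the difference was -0.67 (adjusted p = 0.636) with an interval of -1.91 to 0.57. The CD4 lineage markers were far lower in the same CD8+ libraries: Cd4 was at 0.218% of its mean in allogeneic CD4+ cells, and Cd40lg, the CD40 ligand of helper cells, at 2.21%. Cd4 in CD8+ cells was 29.4 to 92.8 at day 0 and 23.9 to 59.6 in allogeneic hosts. Zbtb7b, the CD4 lineage transcription factor ThPOK, was at 30.1% of its CD4+ mean, with 143 to 349.7 normalised counts in allogeneic CD8+ cells and 19.9 to 53.8 at day 0. The summed level of 3 CD4 T cell markers, Zbtb7b among them, was 238 to 488 in allogeneic CD8+ libraries, 133 to 145 at day 0 and 70.2 to 97.9 in syngeneic ones, beside 20868 to 26253 in allogeneic CD4+ libraries. That of 8 myeloid markers was 3132 to 3551 in allogeneic and 11867 to 16408 in syngeneic CD8+ libraries. That of 5 measured B cell markers was 1104 to 1238 and 3256 to 4039, and that of 4 NK cell markers 1502 to 1887 and 5298 to 5779.7, with Klra8 at 0 in every allogeneic library. Erythroid marker sums were 547 to 14749 in allogeneic, 3138 to 10830 in syngeneic and 29059 to 33121 in day 0 CD8+ libraries. Endothelial and stromal sums were higher in allogeneic libraries, 2429 to 2917 beside 969 to 1558 in syngeneic ones. Plasmacytoid dendritic cell sums, which include Ccr9, were lower, 3942 to 5861 beside 6003 to 6848. Their part in the Foxp3 result was not tested.

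Nrp1 rose in allogeneic hosts in both cell types. In CD8+ cells it measured 113 and 122 at day 0, 64.6, 72.8 and 63.8 in syngeneic hosts and 1586, 1836, 1452 and 1723 in allogeneic hosts. The allogeneic CD8+ level was 24.6-fold the syngeneic one, a difference of 4.60 (SE 0.202, adjusted p = 2.59e-15), and 14-fold the day 0 one. In CD4+ cells Nrp1 measured 1354 and 1221 at day 0, 1095, 895 and 975 in syngeneic hosts and 3327, 3677, 2989 and 2992 in allogeneic hosts, a difference of 1.71 (SE 0.202, adjusted p = 7.29e-07) between the hosts. No allogeneic library overlapped the syngeneic or day 0 libraries of its cell type. Nrp2, its paralogue and also a semaphorin and VEGF receptor, moved the other way, by -5.24 (adjusted p = 1.11e-11) in CD8+ and -2.30 (adjusted p = 3.10e-05) in CD4+ cells, the latter -2.42 without the library with high Lyz2.

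Helios and GARP rose in allogeneic CD8+ cells over syngeneic ones. Ikzf2 measured 78.9, 133 and 82.3 in syngeneic and 434, 381, 694 and 454 in allogeneic CD8+ cells, a difference of 2.32 (SE 0.356, adjusted p = 1.83e-05). At day 0 the CD8+ libraries already held 508 and 719, overlapping the allogeneic ones, and Ikzf2 did not differ by the test between those (-0.34, adjusted p = 0.556). Lrrc32 measured 6.23, 24.6 and 3.27 in syngeneic and 72.8, 77.2, 39.8 and 94.3 in allogeneic CD8+ cells, a difference of 2.90 (SE 0.722, adjusted p = 0.00429), with no overlap; its call was lost without the syngeneic library JL027 (adjusted p = 0.051; 0.0013 to 0.168 over all alternatives). Against day 0, with 13.1 and 8.88, Lrrc32 differed by 2.54 (adjusted p = 0.0196) and lost its call without either day 0 library (adjusted p = 0.0776 and 0.111). Ikzf4 stayed at 12.9 to 65.9 normalised counts across all 13 CD8+ libraries.

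Izumo1r and Gpr83 fell in the same cells. Izumo1r measured 294 and 428 at day 0, 304, 289 and 438 in syngeneic and 69.4, 66.6, 56.3 and 67.1 in allogeneic CD8+ cells. The allogeneic libraries were all below the others, by 5.3-fold against syngeneic cells, a difference of -2.37 (SE 0.293, adjusted p = 6.69e-07). Gpr83 measured 123 and 112 at day 0, 3.94, 11.1 and 28.4 in syngeneic and 4.56, 2.73, 1.56 and 2.73 in allogeneic CD8+ cells. Its values overlapped between hosts, and the difference of -1.69 (adjusted p = 0.0244) lost its call without the allogeneic library JL027-1 or the syngeneic library JL019-2 or JL027, and with only these 2 groups in the fit (adjusted p = 0.0985).

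In conventional CD4+ cells most of the set fell, and Nrp1 rose. From day 0 to the allogeneic host 4 of the 7 genes fell, 1 rose and 2 did not pass the test, while 9.61% of all genes fell and 14.4% rose. Gpr83 fell from 1299 and 1101 to 11.4, 20.9, 20.0 and 13.5, 72.9-fold, a difference of -6.14 (SE 0.608, adjusted p = 9.48e-09). Izumo1r fell from 3936 and 3659 to 930.0, 948, 1021 and 1283, a difference of -1.87 (adjusted p = 9.89e-05). Ikzf2 fell from 1619 and 1769.9 to 315, 396, 699.6 and 546, a difference of -1.86 (adjusted p = 0.00102). None of these groups overlapped.

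Ikzf4 in CD4+ cells fell from 548 and 368 to 166, 168, 98.2 and 103, with -1.79 (adjusted p = 0.0253), and lost its call without either day 0 library or without the allogeneic library JL027-1 or JL027-2. Lrrc32 went from 946 and 802 to 224, 186, 201 and 241 and Foxp3 from 1145 and 978 to 579, 367, 337 and 469.9. Neither gene overlapped between these groups, and neither passed the test, with -2.03 (adjusted p = 0.0735) and -1.30 (adjusted p = 0.231). Both passed with these 2 groups alone in the fit (adjusted p = 4.33e-06 and 0.000468). From day 0 to allogeneic CD4+ libraries the summed level of 6 plasmacytoid dendritic cell markers was 2194 to 2398 and 6126 to 7077, that of 8 myeloid markers 1153 to 2010.4 and 2048 to 3363, and that of 5 B cell markers 492 to 641 and 912 to 1359.9. The plasmacytoid sum includes Ccr9, and its make-up in these libraries is not given here. Endothelial and stromal marker sums were 4684 to 5209 and 3589 to 4276. Their part in these results was not tested.

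Against syngeneic CD4+ cells only Nrp1 rose and only Gpr83 fell in allogeneic CD4+ cells, 2 of 7 genes, beside 6.69% of all genes higher and 7.91% lower; centring moved the higher share of all genes called here from 45.8% to 58.0%. Gpr83 measured 199, 41.2 and 270.4 in syngeneic CD4+ cells, a difference of -2.96 (SE 0.537, adjusted p = 0.000272). Foxp3 measured 490.2, 44.9 and 905 there, a 20.2-fold range within 1 group. The low value belongs to the library with high Lyz2, and the allogeneic values lay within the syngeneic range. The Foxp3 difference was 0.65 (adjusted p = 0.593) with that library and -0.64 (adjusted p = 0.578) without it. Without it Nrp1 differed by 1.65 (adjusted p = 8.65e-06) and Gpr83 by -3.78 (adjusted p = 5.69e-06). Ikzf2, with 576, 329 and 1627 in syngeneic cells, then passed as lower in allogeneic cells (-1.05, adjusted p = 0.0483). The other 2 syngeneic libraries also held more Lyz2, 21602 and 15534, than the 975 to 1876 of allogeneic CD4+ libraries. The summed level of 8 myeloid markers was 19411 to 893918 in syngeneic and 2048 to 3363 in allogeneic CD4+ libraries, and that of 6 erythroid markers 4370 to 463705 and 423 to 10708. Their part in these results was not tested.

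The response to the allogeneic host was tested for a difference between CD8+ and CD4+ cells. It was larger in CD8+ cells for Foxp3 by 6.70 (SE 0.924, adjusted p = 3.55e-05), for Nrp1 by 2.88 (SE 0.286, adjusted p = 3.58e-07) and for Ikzf2 by 2.85 (SE 0.503, adjusted p = 0.000751). It was more negative for Izumo1r, by -2.37 (SE 0.414, adjusted p = 0.00064). These 3 higher and 1 lower of 7 genes stand beside 2.69% and 1.96% of all genes. Centring moved the higher share of all genes called here from 57.9% to 42.5%. Without the syngeneic CD4+ library JL019-2 the value was 7.99 (adjusted p = 2.55e-08) for Foxp3, 2.95 (adjusted p = 3.59e-07) for Nrp1, 3.37 (adjusted p = 2.40e-05) for Ikzf2 and -1.95 (adjusted p = 0.00164) for Izumo1r. The Foxp3 value also depends on the pseudocount, and was 9.01 with 0.1. For Foxp3 it was 5.90 within the prefix JL019 (adjusted p = 0.138) and 8.73 within JL027 (adjusted p = 0.00673). Within JL019 the calls of Nrp1 (2.80, adjusted p = 0.0571), Ikzf2 (2.28, adjusted p = 0.09) and Izumo1r (-2.16, adjusted p = 0.279) were lost too. Within JL027 Nrp1 (adjusted p = 0.0311) and Ikzf2 (adjusted p = 0.0133) passed and Izumo1r did not (-2.59, adjusted p = 0.161). In absolute terms 4 of the 7 genes were lower in allogeneic CD8+ than CD4+ cells and none higher, beside 3.09% and 3.05% of all genes. These were Izumo1r at 6.20% of the CD4+ mean (-3.98, adjusted p = 6.07e-11), Gpr83 at 17.6% (-2.18, adjusted p = 0.00622), Ikzf4 at 31.9% (-1.68, adjusted p = 0.0311) and Nrp1 at 50.8% (-0.98, adjusted p = 0.00117). The Ikzf4 call was lost without the CD4+ library JL019-1 or JL019-2 or the CD8+ library JL019-2 or JL027-1 (adjusted p 0.0965 to 0.113), and with quantile normalisation (-1.46, adjusted p = 0.113). Ikzf2 was at 100.4%, with an interval of -0.64 to 0.71 for the difference.

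Giving Treg to the host was followed by lower Foxp3 readings in CD4+ cells, which did not pass the test. The allogeneic libraries held 579, 367, 337 and 469.9 and the Treg-treated ones 172, 127, 147 and 178 normalised counts. Every Treg-treated value was below every allogeneic value. By means this was 2.81-fold, a difference of -1.46 (SE 0.605, adjusted p = 0.0793) with an interval of -2.71 to -0.22. With only these 2 groups in the fit the adjusted p was 0.00908; leaving out 1 library gave 0.0883 to 0.173, and all alternatives spanned 0.00908 to 0.679. The difference was -1.64 within the prefix JL019 (adjusted p = 0.271) and -1.29 within JL027 (adjusted p = 0.679).

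Izumo1r rose in the same cells and was the 1 of 7 genes called, beside 10.7% of all genes higher and 11.5% lower; centring moved the higher share of all genes called from 48.1% to 64.6%. Its values were 930.0, 948, 1021 and 1283 in allogeneic and 2833, 3599.5, 1622 and 3374 in Treg-treated hosts, without overlap, a difference of 1.40 (SE 0.271, adjusted p = 0.005). Its call held in each fit that left out 1 library; the difference was 1.76 within the prefix JL019 (adjusted p = 0.0799) and 1.03 within JL027 (adjusted p = 0.679). Ikzf2 measured 315, 396, 699.6 and 546 in allogeneic and 760.3, 608, 1132 and 1009.7 in Treg-treated hosts, with 0.87 (adjusted p = 0.0581). Nrp1 measured 3327, 3677, 2989 and 2992 in allogeneic and 2173, 1936, 2926 and 2165 in Treg-treated hosts, with -0.51 (adjusted p = 0.0505). Lrrc32 measured 224, 186, 201 and 241 in allogeneic and 91.5, 75.1, 145 and 42.8 in Treg-treated hosts, with -1.38 (adjusted p = 0.134). Nrp1 and Lrrc32 did not overlap between the hosts and Ikzf2 did, and none of the 3 passed the test in the main fit. Each passed under some alternatives. Outside the fits within 1 prefix, limma's adjusted p was 0.0278 to 0.185 for Ikzf2 and 0.0135 to 0.157 for Nrp1. For Lrrc32 it was 0.0152 to 0.317.

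Markers of other cells differed in level between the same CD4+ libraries. The summed level of 8 myeloid markers was 2048 to 3363 in allogeneic and 3549 to 15411 in Treg-treated libraries. That of 6 erythroid markers was 423 to 10708 and 5448 to 62447. Plasmacytoid dendritic cell marker sums, which include Ccr9, were 6126 to 7077 and 7755 to 10341. Lower in Treg-treated libraries were NK cell sums, 450 to 572 and 369 to 409. Endothelial and stromal sums were lower too, 3589 to 4276 and 1370 to 3209. Cd4 was 16706 to 21481 and 8722 to 17587. The mean over all genes was 1504 to 1669 and 1608 to 2118 normalised counts, and centring each library on its median moved every difference of this comparison by 0.20. The part of these in the Foxp3 and Izumo1r results was not tested. None of the 8 myeloid markers was at 0 in every library of either group.

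In CD8+ cells none of the 7 genes passed between Treg-treated and allogeneic hosts by limma, the only tool run, where 0.0478% of all genes were higher and 0.0179% lower. An unadjusted p under 0.05 was reached by 2, Izumo1r and Lrrc32. The shares above are for adjusted p, and the share of all genes at the unadjusted threshold is not given here. Izumo1r measured 69.4, 66.6, 56.3 and 67.1 in allogeneic and 76.7, 172, 141 and 143 in Treg-treated hosts, without overlap, with 0.97 (adjusted p = 0.167); without the Treg-treated library JL019-1 it passed (0.049; 0.049 to 1.00 over all alternatives). Foxp3 measured 236, 109, 153 and 126 in Treg-treated hosts, overlapping the allogeneic range, with -0.84 (adjusted p = 0.577) and an interval of -2.09 to 0.40. Lrrc32 measured 112, 18.1, 28 and 4.04 there, a 27.7-fold range in 1 group, and Nrp1 2358, 1004, 1859 and 1796. The Treg effect was not shown to differ between CD8+ and CD4+ cells for any of the 7 genes: 0 reached an adjusted or unadjusted p under 0.05, beside 0% of all genes higher and 0.00597% lower. For Foxp3 that difference was 0.62 (adjusted p = 0.908) with an interval of -1.14 to 2.38.

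**Figure D4:**
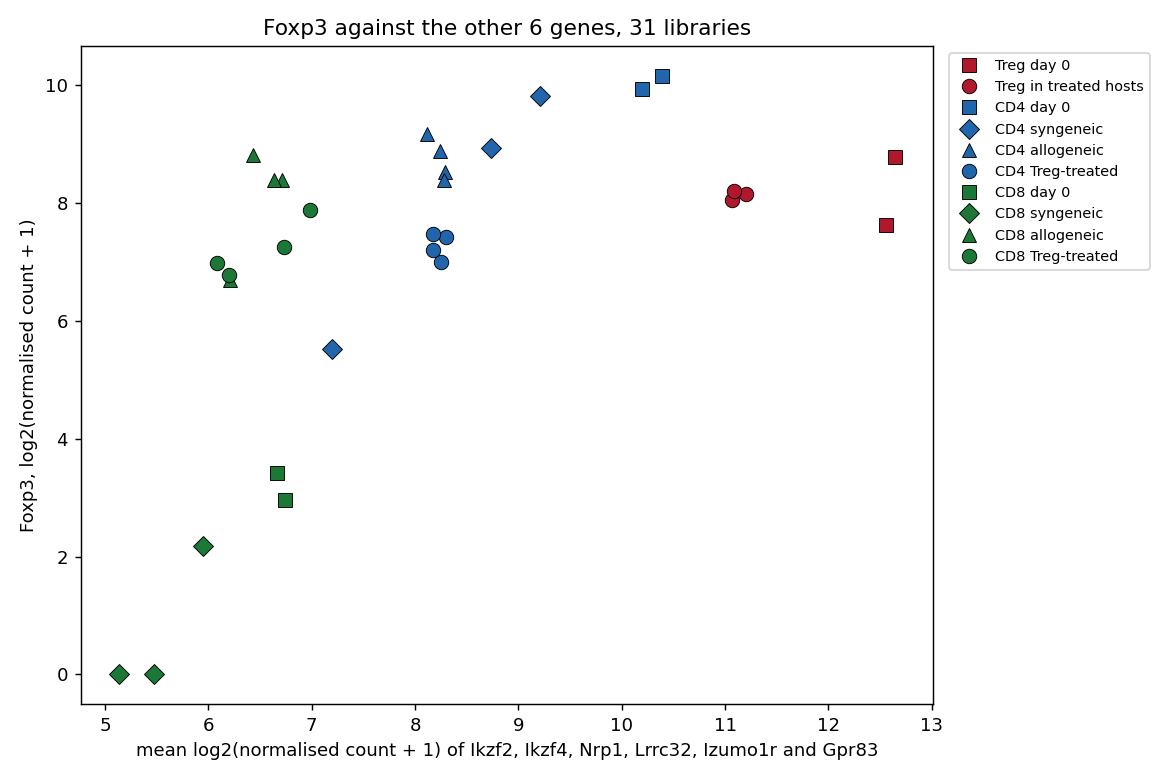
Foxp3 (vertical axis) against the mean of the other 6 genes (horizontal axis) in 31 libraries, both as log2(normalised count + 1); colour gives the cell type and shape the host. Treg stand to the right, at 11.1 to 12.6 on the horizontal axis, while allogeneic CD8+ cells at 6.21 to 6.71 have Foxp3 values of 6.70 to 8.83, which overlap those of Treg at 7.63 to 8.79.

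How the 7 genes varied together is described over the 10 group means, which share libraries and normalisation. The Pearson correlation was highest between Ikzf4 and Lrrc32 (0.957), then Ikzf4 and Izumo1r (0.903), Ikzf2 and Ikzf4 (0.898) and Ikzf2 and Lrrc32 (0.893). Foxp3 was most like Nrp1 among the 7 (0.873) and least like Gpr83 (0.283), and Nrp1 and Gpr83 were the least alike pair (0.224). Among the 15263 genes with a mean of at least 10, those most like Foxp3 included Zbtb7b (0.940), Pgghg (0.936), Nrp1 (0.873) and Prickle1 (0.873). Closest to Ikzf2 were Lclat1, Xkr6 and Etv5 (0.967 to 0.965), and to Ikzf4 Noxo1, Ncmap and Gm3667 (0.980 to 0.963). Nrp1 was most like Fam124b, Angptl2 and Tox2 (0.975 to 0.953), and Lrrc32 most like Spty2d1, Noxo1 and Ppp1r21 (0.976 to 0.958). The nearest genes to Izumo1r were Zfp467, Msl3l2 and Bmp7 (0.961 to 0.955), and to Gpr83 Igf1r, Kctd12b and Pcf11 (0.981 to 0.974).

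A list of 27 other Treg genes, receptors and cytokines among them, followed the Treg label at day 0. Of these 27, 23 were higher in Treg than in CD4+ cells at day 0 and none lower, beside 2.54% and 1.34% of all genes, with a median difference of 2.63 beside 0.07 over all genes. Il10, an anti-inflammatory cytokine, differed by 5.85 and Tigit, an inhibitory receptor, by 3.47. Against syngeneic hosts, 18 of the 27 rose and 3 fell in allogeneic CD8+ cells (median 2.71), and 20 rose in allogeneic CD4+ cells (median 2.02, beside -0.0014 over all genes; 18 and 1.66 without the library with high Lyz2). The shares over all genes were 10.4% higher and 10.7% lower in CD8+ cells, and 6.69% higher in CD4+ cells. In CD8+ cells the costimulatory receptor gene Tnfrsf4 (OX40) rose by 6.60 and Swap70 by 4.22, while Itgae, the integrin CD103, fell (-2.46). Of 12 genes known to be lower in Treg than in conventional CD4+ cells, 4 were lower at day 0 and none higher (1.34% and 2.54% of all genes), among them Dapl1 (-3.39) and Lef1, a Wnt pathway transcription factor (-1.88).

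Of 13 measured genes of GARP and TGF-beta activation, 2 were higher in Treg at day 0, beside 2.54% of all genes: Itgav (1.71) and Itgb8 (3.46), the chains of the integrin that releases TGF-beta from GARP. Both were also higher in recovered Treg than in CD4+ cells of the same hosts, by 2.79 and 4.23, among 5 of 13 higher and none lower, beside 13.9% and 16.1% of all genes. Of 15 neuropilin and semaphorin genes 1 differed at day 0, where 2.54% of all genes were higher and 1.34% lower. It was Sema4a, a neuropilin-1 ligand, which was lower in Treg than in CD4+ cells (-2.18, adjusted p = 0.0152), and it was lower in recovered Treg too (-2.01, adjusted p = 0.000779). In that second comparison 3 of the 15 were higher in Treg and 1 was lower, beside 13.9% and 16.1% of all genes. The list as a whole was not shown to differ from all genes there. Among the 3 were the semaphorin receptor gene Plxnd1 (2.18) and Sema4d (1.51).

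Of 28 regulators and partners of Foxp3, 0 passed limma's adjusted threshold between Treg and CD4+ cells at day 0. Of all genes, 2.54% were higher and 1.34% lower there, so 0 of 28 is near the share over all genes. An unadjusted p under 0.05 was reached by 3 of the 28, and the share of all genes at that threshold is not given here. Between Treg-treated and allogeneic CD4+ cells, 7 of the 28 fell and 1 rose, with a median of -0.71 beside -0.0018 over all genes, of which 11.5% fell and 10.7% rose. Nfatc1 and Nfatc2, calcium-dependent factors that partner Foxp3, fell by 1.98 and 1.58 on the log2 scale, and Smad3, a TGF-beta signal transducer, by 1.70. Ezh2, the Polycomb methyltransferase, rose by 0.72. Of 8 measured paralogues of the 7 genes, 1 was higher and 3 were lower in allogeneic than in syngeneic CD8+ cells, and 1 was higher and 2 were lower in CD4+ cells, where 10.4% and 6.69% of all genes were higher and 10.7% and 7.91% lower. Ikzf3 (Aiolos) was higher in allogeneic than in syngeneic CD8+ (0.98) and CD4+ cells (2.36, 1.69 without the library with high Lyz2). Foxp1 was lower in both (-1.26 and -0.64, the latter -0.81 without that library).

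Helper and cytotoxic effector genes, 14 measured, were mostly higher in allogeneic hosts in both cell types. Against syngeneic hosts 10 rose and 1 fell in CD8+ cells (median 1.65), beside 10.4% and 10.7% of all genes, with Gzmk (5.98) and Gzmb (3.24), granzymes of killer cells, rising and Cxcr5, a follicular homing receptor, falling (-3.88). In CD4+ cells 9 rose and 1 fell (median 2.32), beside 6.69% and 7.91% of all genes, with Gzmb (3.41) and Fasl, the Fas ligand (2.64), rising. Without the library with high Lyz2, 6 rose and 1 fell (median 1.62). Between Treg-treated and allogeneic CD4+ cells 1 of the 14 rose, the cytokine gene Il4 (2.44), a share below the 10.7% of all genes.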

How the data were processed

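RNA was measured in 31 mouse T-cell libraries made with the SMARTer v4 and Nextera XT kits, per the labels' protocols. The deposited table holds 16741 genes as a normalised signal, which the authors deposited after scaling between libraries, per the file headers. The submitters' processing notes name FastQC 0.11.7, kallisto, DESeq2 and the builds GRCm38 and mm10, without their order. Whole reads could not be recovered, so depth is unknown and no count model was used. Groups came from the titles and treatment labels. For the tests, log2(value + 1) was fitted with limma 3.58.1 (trend and robust, R 4.3.3) over all 31 libraries with 1 mean per group, after a minimum mean of 1, which removed 0 genes, and p-values were Benjamini-Hochberg adjusted over all genes in each of 13 comparisons. The fit was tested on simulated data. The 7 genes are all reported, and of each list the genes with the lowest adjusted p or a role tied to one of the 7; likeness is the Pearson correlation over group means, with the 5 nearest genes for Foxp3, of which 1 is not reported here, and 3 for each other gene. The genes and lists were chosen with earlier results of these data known. Alternatives were the pseudocount, low-value filter, samples in the fit, replicate blocks, scaling, single prefixes and leaving out each library. Tables of T-cell receptor sequences were not used here. Sequences and positions are from RefSeq (GRCm38.p6); of the 7 genes, 4 matched its promoter table.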

Additional observations from a re-analysis of the deposited data

Results flagged for a closer look

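For 4 of the 7 genes the effect of the allogeneic host, against syngeneic hosts, differed between CD8+ and CD4+ cells by limma's interaction test. The CD8+ minus CD4+ difference was 6.70 for Foxp3, 2.88 for Nrp1, 2.85 for Ikzf2 and -2.37 for Izumo1r on the log2 scale. The Foxp3 value, 9.01 with a pseudocount of 0.1, depends on the pseudocount because 2 syngeneic CD8+ libraries are listed at 0. Ikzf2 differed by 2.32 in CD8+ cells and by -0.53, short of the threshold, in CD4+ cells. Izumo1r fell in CD8+ cells and differed by 0.0052 in CD4+ cells. Without the syngeneic CD4+ library JL019-2, with high Lyz2, the CD4+ values were -0.42 for Izumo1r and -1.05 for Ikzf2.

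The change of Nrp1 since day 0 differed between recovered Treg and CD4+ cells of Treg-treated hosts, by -2.59 on the log2 scale. Nrp1 measured 7417 and 7167 in Treg and 1354 and 1221 in CD4+ cells at day 0, and afterwards 2409, 1973 and 2065 and 2173, 1936, 2926 and 2165. No library of the 7 genes stood out within its group in the 28 sets of 4 libraries that were tested for a single distant value.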

How the results depend on the processing

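Member differences were recomputed 1750 times: 1607 kept direction and side of the threshold, 64 lost their call, 27 gained one and 52 changed sign, none of the last called in the first place. Of 40 called differences 32 kept their call under every alternative except the fits within 1 label prefix, which hold as few as 1 library a group. Causes were not tested, apart from fewer libraries or genes where an alternative removes them. The depth behind the values is unknown, so no floor can be given for values near 0. Centring shifted the median of all genes by over 0.1 in 7 comparisons: Treg against CD4+ in treated hosts (-0.22), CD8+ allogeneic against day 0 (0.15), CD4+ allogeneic against syngeneic (0.11), CD4+ treated against allogeneic (0.20), and the differences of Treg effects (-0.12), allogeneic effects (-0.15) and changes since day 0 (-0.14).

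Outside the fits within 1 prefix, for which counts were not compared, counts of called genes changed by more than 1.5 times in 4 comparisons; smaller changes occurred in others, such as 5 to 7 with only the groups compared for CD4+ cells, allogeneic against day 0. Between Treg and CD4+ cells at day 0, 4 became 7 with only the groups compared in the fit and 2 with any library left out. Between Treg-treated and allogeneic CD4+ cells, 1 became 2 with a pseudocount of 0.1, a filter at a mean of 10 or libraries centred on their median, 3 with quantile normalisation, 4 with only the groups compared, and 1 to 2 with a library left out. The same comparison in CD8+ cells gave 0 to 1 with a library left out. For the difference of changes since day 0 between Treg and CD4+ cells, 1 became 3 with only the groups compared and 1 to 2 with a library left out.

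A replicate block changed these counts: in CD4+ cells, Treg-treated against allogeneic, 1 became 2 blocking on the label prefix, 2 on the recipient and 3 on the replicate label, and for the changes since day 0, 1 became 2 blocking on the recipient. Blocking on the prefix ended the fall of Izumo1r in recovered Treg (-1.03, adjusted p = 0.052), and turned Izumo1r in allogeneic against syngeneic CD4+ cells to -0.016; it ended no other call of the 7 genes. Deviations of the 21 pairs of libraries with the same recipient label had a median correlation of 0.135 (-0.319 to 0.442), and 11 were over 0.1. The median was 0.031 in 144 pairs that shared only the prefix, 39 of them over 0.1. It was 0.019 in 51 pairs with the same label but another recipient (14 over 0.1), and -0.019 in 213 pairs of other prefixes (44 over 0.1). The main fit leaves such pairing out, and the recipient label enters only as an alternative block.

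Signs that changed belonged to differences that did not pass the test. Within the prefix JL019 they were Nrp1, Treg against CD4+ in treated hosts (0.088), Foxp3 in Treg since day 0 (0.47), Ikzf4 in allogeneic against syngeneic CD4+ (0.35) and CD8+ cells (-0.035), Nrp1 in CD8+, treated against allogeneic (-0.15), the CD8+ minus CD4+ difference of Treg effects for Ikzf4 (-0.49) and Lrrc32 (0.58), and that of allogeneic effects for Ikzf4 (-0.39). Within JL027 they were Lrrc32 in Treg since day 0 (-0.27), Foxp3 (-1.18) and Izumo1r (-0.23) in allogeneic against syngeneic CD4+ cells, Ikzf4 in CD8+, treated against allogeneic (0.25), Ikzf2, CD8+ against CD4+ in allogeneic hosts (-0.14), and Izumo1r, difference of Treg effects (0.17). Quantile normalisation turned Lrrc32 in Treg (-0.015), Izumo1r in allogeneic against syngeneic CD4+ cells (-0.070) and Ikzf4 for the difference of Treg effects (-0.049). Centring turned Gpr83 in CD4+, treated against allogeneic (0.033), and Ikzf4 for the difference of Treg effects (-0.066).

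With 1 library left out, the ranges that crossed 0 were these. In Treg comparisons Nrp1 against CD4+ in treated hosts gave -0.17 to 0.036 and Foxp3 since day 0 -0.65 to 0.50. Allogeneic against day 0 CD8+ cells gave -0.036 to 0.39 for Ikzf4. Allogeneic against syngeneic CD4+ cells gave -0.42 to 0.24 for Izumo1r, -0.64 to 1.52 for Foxp3 and -1.05 to 0.10 for Ikzf2, and CD8+ cells -0.17 to 0.47 for Ikzf4. Treated against allogeneic hosts gave -0.53 to 0.018 for Ikzf4 in CD4+ cells, and in CD8+ cells -0.44 to 0.25 for Ikzf4, -0.13 to 0.28 for Nrp1 and -0.11 to 0.44 for Gpr83. CD8+ against CD4+ in allogeneic hosts gave -0.16 to 0.23 for Ikzf2. The difference of Treg effects gave -0.22 to 0.50 for Ikzf4 and -0.91 to 0.58 for Lrrc32.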
